A study of Homo sapiens with 4 samples.

Results

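The genes described here are 48 interferon-stimulated and antigen presentation genes, followed in 22Rv1 cells, an established human prostate carcinoma line, after an extract named WCE. They were taken by name, as all probes of the raw signal table whose platform annotation gives one of the 48 symbols. The annotation named a probe for 47 of them, of 20046 genes named on the array, with 78 probes in all. STAT2 had none and is not analysed here. The cells had received vehicle (2 arrays), whose make-up the labels do not give, or 10 µg/mL of WCE, a herbal extract by the title of the series (2 arrays), for 16 h. Both groups are the same unmodified line, and neither is labelled as having received an interferon. Nothing in the labels says that arrays of a group came from separate cultures, so the spread between them may be technical.

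Interferons are secreted antiviral signals. They bind cell-surface receptors whose JAK kinases phosphorylate STAT proteins, and a complex that holds STAT2 and IRF9 then binds a promoter element, the interferon-stimulated response element, and raises genes whose products block virus entry, translation and replication. The same signal, largely through IRF1 and NLRC5, raises the machinery that cuts proteins into peptides, carries them into the endoplasmic reticulum and displays them on class I molecules to T cells. CIITA switches on the class II pathway, which normally belongs to professional antigen-presenting cells. In tumours, including those of the prostate, low class I presentation is a known route of escape from T cells.

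Of the 47 genes with a probe, 34 were bright enough to be tested, meaning that at least 1 probe had a detection p-value, which says how often negative control beads were as bright, below 0.05 on both arrays of a group. That is 72.3% of these genes, against 60.5% of all named genes. Of the 34, 30 had a probe detected on all 4 arrays, and IFI44, HLA-B, HLA-F and PSMB9 did not. The other 13 were IFIT1, IFIT2, IFIT3, IFIT5, OAS2, OASL, IFI16, IFI27, IRF2, NLRC5, PSMB8, CD74 and CIITA. For 11 of these, no probe was detected on any array, the exceptions being IFIT5 and IRF2, each with 1 probe detected on 1 vehicle array. Among all 78 probes, 31 were detected nowhere, with detection p-values between 0.0558 and 0.970 and raw signals between 53.4 and 84.8. An undetected probe shows only that its signal could not be told from the negative controls.

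The arrays had median raw signals between 81.7 and 85.1, and between 45.2% and 48.9% of probes were detected. Of 9 prostate luminal markers with a probe, 8 were measured, among them HOXB13, FOLH1, EPCAM, KRT8 and KRT18, while KLK3 was detected on no array. KLK2, KLK4 and TMPRSS2 fell after WCE (log2 fold changes -1.05, -0.85 and -1.66, limma adjusted p = 0.0426, 0.0385 and 0.00201). Of 12 immune marker probes, 10 were detected nowhere, including all those of PTPRC, the pan-leukocyte marker, and of CD3E, TYROBP, FCER1G and LAPTM5. The exceptions were 1 probe each of CD14, with 6.35 and 6.30 against 5.91 and 5.93 (-0.40, limma adjusted p = 0.203), and LYZ (0.25, adjusted p = 0.649). Their part in the results was not tested. Summed raw signals of the 12 probes were 930.1 and 948.0 with vehicle and 906.2 and 945.6 after WCE, most of it from undetected probes. All 4 endothelial marker probes and 7 of 12 fibroblast marker probes were likewise detected nowhere. The fibroblast markers LUM, COL1A1 and DCN were measured, LUM at 7.60 and 8.51 with vehicle and 8.80 and 8.32 after WCE. Their log2 fold changes were 0.51, 0.34 and -0.21 (limma adjusted p = 0.379, 0.390 and 0.557).

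Most of the measured interferon and antigen presentation genes differed between the groups by no more than the test could separate from the spread of the arrays. In limma's moderated test over all 12136 tested genes, 1 of the 34 fell, the virus-entry restriction factor IFITM1, and 0 rose, at an adjusted p of 0.05. Over all genes 1.89% passed, 0.709% lower and 1.18% higher after WCE, so 1 gene of 34 was near the background. With median scaling the split over all genes was 100 higher and 30 lower, in place of 143 and 86. Without adjustment, 4 of the 34 had p below 0.05, ISG20 and TAP1 higher and IFITM1 and IRF7 lower, against 19.1% of all genes (9.87% higher, 9.25% lower). Of the 34, 0 differed 2-fold, and over all genes 1.29% did. The median log2 fold change was 0.00 for the 34 and 0.02 for all genes, with 17 higher and 17 lower on average. The groups did not overlap for 14 of them, 8 higher and 6 lower, against 50.3% of all genes (26.2% higher, 24.1% lower). With 2 arrays in each group an exact permutation test cannot go below p = 0.333, so each call rests on the variance that limma pools over genes.

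**Figure D1:**
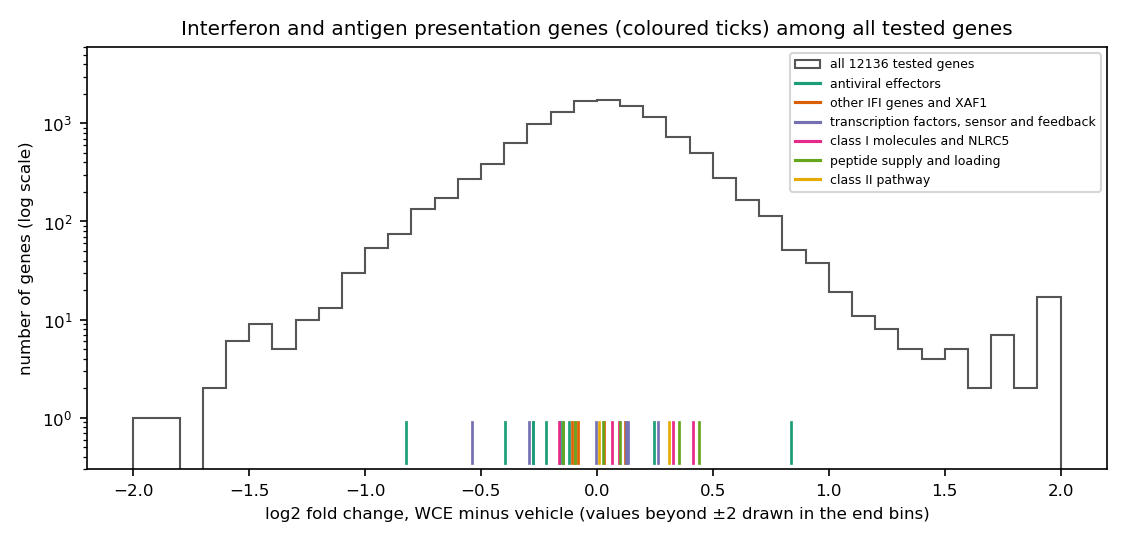
Number of genes (log scale) by log2 fold change, WCE minus vehicle, for all 12136 tested genes (line), with the 34 interferon and antigen presentation genes as ticks coloured by role. The ticks lie between -0.82 (IFITM1) and 0.84 (ISG20), and 25 of the 34 (73.5%) lie within 0.3 of 0, as do 69.1% of all tested genes.

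The upstream part of the pathway was largely measured. Outside the 34 genes, 14 of 16 receptor, kinase and negative regulator genes with a probe were tested, and 0 passed in limma's test in either direction, with 1 at an unadjusted p below 0.05. Receptor subunits for type I interferon had log2 fold changes of 0.26 (IFNAR1) and -0.17 (IFNAR2), and those for interferon gamma had 0.09 (IFNGR1) and -0.26 (IFNGR2). JAK1, the kinase that both receptor classes need, was represented by 1 probe, which was detected on no array, with detection p-values of 0.164 and 0.0649 with vehicle and 0.469 and 0.248 after WCE. TYK2, its partner at the type I receptor, was detected and had -0.03. SOCS1, a feedback inhibitor of JAK kinases, was also undetected. The smallest p in this list was that of PTPN1, a phosphatase that acts on JAK kinases (-0.42, limma adjusted p = 0.245), followed by the feedback inhibitor SOCS3 (-0.37, adjusted p = 0.332). SOCS3 lay below the lowest detected signal on WCE replicate 2 (4.81 against 5.20) and was kept through its vehicle arrays.

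Of the transcription factors, IRF7 stood furthest from 0. IRF7, which drives transcription of type I interferon genes and is itself induced by interferon, had log2 signals of 7.95 and 7.99 with vehicle and 7.26 and 7.60 after WCE. Both WCE arrays lay below both vehicle arrays, and they lay farther apart than the vehicle arrays (SD 0.24 against 0.03, n = 2 each). The log2 fold change was -0.54 ± 0.17 (SE), with a limma adjusted p of 0.150. A second probe of IRF7, ILMN_2349061, had 6.65 and 6.29 with vehicle and 5.66 and 5.63 after WCE. It was thus lower on both WCE arrays too, by -0.83 ± 0.18 on the log2 scale, with an adjusted p of 0.0827 over all 21996 kept probes. The third probe of IRF7 was undetected throughout.

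The related factors lay closer to 0. IRF3, which is activated by phosphorylation rather than by induction, lay between 8.81 and 9.11 on the 4 arrays, with overlapping groups and a log2 fold change of 0.13 ± 0.17 (SE, adjusted p = 0.721, limma). IRF9, the DNA-binding part of its complex with STAT2, had 0.26 ± 0.18 and IRF1, which drives class I genes, 0.13 ± 0.16. IFIH1, a cytosolic sensor of double-stranded RNA, had -0.00 ± 0.17 and USP18, which removes ISG15 from proteins and dampens receptor signalling, -0.29 ± 0.21. Their limma adjusted p-values lay between 0.470 and 0.996. In all, 0 of the 6 genes tested in this group passed, and IRF7 alone had an unadjusted p below 0.05.

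Nucleic acid sensors and their adaptors lie upstream of IRF3 and IRF7. Of 13 with a probe 9 were tested and 0 passed in limma's test, with 3 at an unadjusted p below 0.05, against 19.1% of all genes. Among them IKBKE and MAVS, a kinase and an adaptor, had -0.52 and 0.46 (adjusted p = 0.162 and 0.240). IKBKE lay below the lowest detected signal on WCE replicate 1 (4.93 against 5.08) and was kept through its vehicle arrays. The DNA-sensing genes CGAS and STING1 were undetected on every array.

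Antiviral effectors held the gene that passed and the largest difference in the other direction. IFITM1, a membrane protein that stops enveloped viruses from fusing with the cell, had log2 signals of 6.55 and 6.47 with vehicle and 5.69 and 5.69 after WCE. The groups were well apart, and the WCE arrays were nearly equal (SD 0.01, n = 2). IFITM1 fell by 0.82 on the log2 scale, with an SE of 0.16 and a limma adjusted p of 0.0377, a 1.77-fold difference. The signal was low, at 146.2 and 139.6 raw units with vehicle and 109.3 and 100.7 after WCE, and all 4 values were detected. Without background correction the difference was -0.46 and did not pass (adjusted p = 0.0712). It also did not pass over all kept probes (0.0637), or without vehicle replicate 1 (0.246), vehicle replicate 2 (0.165) or WCE replicate 2 (0.0867). Over 14 other settings its adjusted p ranged from 0.00867 to 0.246.

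IFITM2 and IFITM3, which restrict the same step from endosomes, are close paralogs of IFITM1 and neighbours of it on chromosome 11, and whether the 3 probes separate them was not tested. IFITM2 had 9.72 and 9.82 with vehicle and 9.20 and 9.55 after WCE. Its WCE arrays also lay below its vehicle arrays, with -0.40 ± 0.18 (SE) and an adjusted p of 0.267 (limma). For IFITM3 the groups overlapped, with 8.54 and 8.83 against 8.44 and 8.69, and the log2 fold change was -0.12 ± 0.18 (adjusted p = 0.772).

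ISG20 went the other way. This gene encodes an exonuclease that degrades RNA, and its log2 signals were 10.11 and 9.74 with vehicle and 10.66 and 10.86 after WCE. Both WCE arrays lay above both vehicle arrays. The log2 fold change of 0.84 ± 0.18 (SE), 1.79-fold, had a limma adjusted p of 0.0572, just beyond the threshold. ISG20 passed in 8 of 14 other settings, among them no background correction (0.0186) and the authors' processed values (0.0163), with adjusted p-values from 0.00711 to 0.284, and IFITM1 in 6 of 14.

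The other effectors lay closer to 0. ISG15, a ubiquitin-like protein that is attached to other proteins, had 11.64 and 11.82 with vehicle and 11.57 and 11.60 after WCE, a difference of -0.15 with a 95% interval from -0.51 to 0.22. MX1, a GTPase that traps viral nucleocapsids, had -0.22 ± 0.16 (SE). OAS1 and OAS3, which make the second messenger for RNA decay, had 0.24 and -0.28. RSAD2, which makes a chain-terminating nucleotide, had -0.16 and BST2, which tethers budding virus, -0.27. The limma adjusted p-values of these genes lay between 0.461 and 0.676. Of the 10 effectors tested, 8 were lower on average and 2 higher, with a median log2 fold change of -0.19. Over all genes 47.8% were lower on average, with a median of 0.02, and the count was not tested. BST2 and IFITM3, counted as lower, turned sign in at least 1 other setting. IFIT1, IFIT2, IFIT3, IFIT5, OAS2 and OASL were not tested, having no probe detected on both arrays of a group. The IFIT proteins bind foreign RNA caps, and for IFIT1 the 2 probes had detection p-values from 0.0558 to 0.429.

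**Figure D2:**
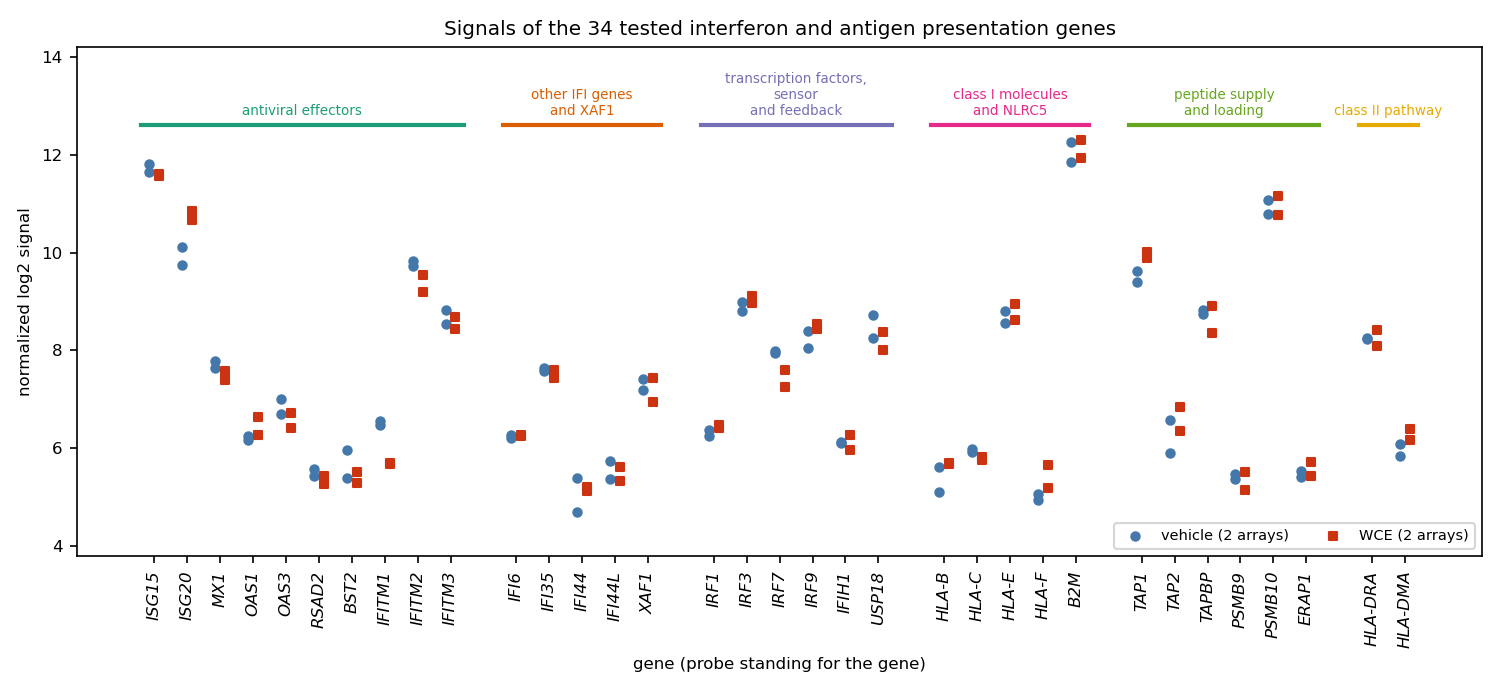
Normalized log2 signal of each tested gene on the 4 arrays, grouped by role (circles vehicle, squares WCE). IFITM1, IFITM2 and IRF7 are lower and ISG20 and TAP1 higher on both WCE arrays, and the groups of most other genes overlap. Heights of different genes cannot be compared, since each comes from its own probe.

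Among the remaining IFI genes and XAF1, 5 were tested and their log2 fold changes lay between -0.11 and 0.12, with overlapping groups in every case. IFI6, which protects mitochondria from apoptosis, had 6.27 and 6.20 with vehicle and 6.27 and 6.26 after WCE on 1 probe, a difference of 0.03 ± 0.16 (SE), and -0.01 ± 0.17 on the other. IFI35 had 7.57 and 7.65 against 7.60 and 7.43, a difference of -0.10 ± 0.16 (adjusted p = 0.802, limma). XAF1, which antagonises an inhibitor of apoptosis, had -0.11 and -0.14 on its probes.

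A list of other interferon-stimulated genes widens the view. Of 32 with a probe 15 were tested and 0 passed in limma's test, 4 of them having an unadjusted p below 0.05, with 12 lower and 3 higher on average and a median of -0.19. All 4 were lower, against 9.25% of all genes, and 47.8% of all genes were lower on average. The smallest p-values were those of HERC5, the ligase that attaches ISG15, at 5.71 and 5.85 with vehicle and 4.90 and 5.20 after WCE (-0.73 ± 0.17, SE, adjusted p = 0.0758, limma), and of TRIM14, an adaptor in antiviral signalling, at 5.73 and 5.39 against 4.97 and 4.73 (-0.71 ± 0.18, adjusted p = 0.0950). Neither pair of groups overlapped. The lowest detected signals on the WCE arrays were 5.08 and 5.20. TRIM14 lay below them on both WCE arrays and HERC5 on WCE replicate 1. In the same list PML lay below them on both WCE arrays, GBP1 on WCE replicate 1 and DTX3L, another of the 4, on WCE replicate 2. All of these genes were kept through their vehicle arrays, which favours the negative sign with which they are counted. MX2, the relative of MX1, was detected on no array.

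**Figure D3:**
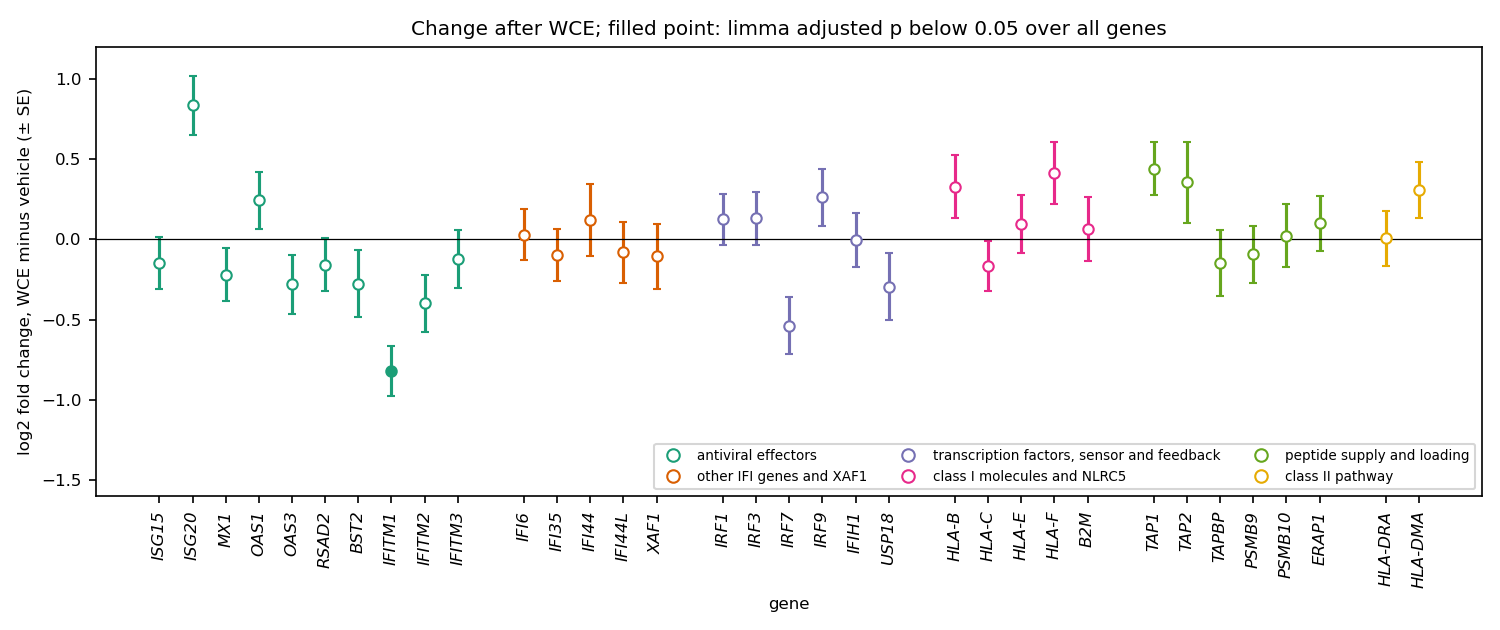
Log2 fold change, WCE minus vehicle, with the standard error of limma's fit, for each tested gene, coloured by role. Only the point of IFITM1 (-0.82) is filled, marking an adjusted p below 0.05 over all genes, and ISG20 (0.84) is the largest open point.

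Class I molecules were measured on 5 of 6 genes, counting their activator NLRC5. HLA genes vary between people, and whether these probes match the alleles of this line was not tested. B2M, the light chain of every class I molecule, had 11.84 and 12.25 with vehicle and 12.29 and 11.93 after WCE. The groups overlapped, with a difference of 0.07 and a 95% interval from -0.39 to 0.52, and the second probe had 0.03 ± 0.19 (SE). HLA-E, which presents leader peptides to natural killer cells, had 0.10 ± 0.18, and HLA-C -0.17 ± 0.16. HLA-B had 5.62 and 5.10 with vehicle and 5.69 and 5.68 after WCE, a difference of 0.33 ± 0.20. It was detected on 1 of its 2 vehicle arrays and kept through its WCE arrays, which favours a positive sign. Of the 5 class I genes tested 0 passed (limma adjusted p from 0.283 to 0.899), and 0 had an unadjusted p below 0.05. NLRC5, the class I transactivator, was detected on no array.

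The probes of HLA-F, a non-classical class I gene, went in opposite directions. One (ILMN_2186806) was detected only after WCE, at 4.95 and 5.06 with vehicle and 5.19 and 5.65 after WCE, which gives at least 1.27-fold higher. The other (ILMN_1762861) was detected only with vehicle, at 5.32 and 5.34 against 5.01 and 4.95, which gives at least 1.14-fold lower. Such a bound sets the mean of the detected group against the lowest detected signal, or the probe's own value if higher, on the other arrays. It takes no account of the spread between arrays, so the true difference may be smaller, and it holds only with this background correction. Neither probe passed (adjusted p = 0.319 and 0.309 over all kept probes, limma), and no direction can be given for the gene.

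Peptide supply and loading had 6 tested genes, of which 0 passed in limma's test and 1 had an unadjusted p below 0.05. It was TAP1, a subunit of the transporter that carries peptides into the endoplasmic reticulum, with log2 signals of 9.62 and 9.40 with vehicle and 9.88 and 10.02 after WCE. Both WCE arrays lay above both vehicle arrays, with 0.44 ± 0.17 (SE) and an adjusted p of 0.197. Its partner TAP2 had 5.90 and 6.58 against 6.84 and 6.35, with overlapping groups. The difference was 0.36 ± 0.25, the largest standard error among the 34 genes. A second probe of TAP2 had 0.31 ± 0.20. That probe was undetected on 1 of its 2 vehicle arrays and was kept through its WCE arrays.

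TAPBP, or tapasin, which holds the transporter to empty class I molecules, had 3 kept probes. The one standing for the gene had 8.83 and 8.74 with vehicle and 8.36 and 8.92 after WCE, overlapping groups and -0.15 ± 0.20 (SE). The 2 others were undetected on both WCE arrays, so they give bounds, at least 1.12-fold lower for ILMN_1773031 and at least 1.23-fold lower for ILMN_1782851. The second of these had an unadjusted p of 0.00819 and an adjusted p of 0.150 over all kept probes. All 3 probes had a negative difference, and 0 passed. The 2 undetected after WCE were kept through their vehicle arrays, which favours a negative sign.

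Immunoproteasome subunits, which replace constitutive ones under interferon gamma and change the peptides made, differed in whether they were seen at all. PSMB10 had 11.08 and 10.78 with vehicle and 10.76 and 11.15 after WCE, a difference of 0.02 ± 0.19 (SE, adjusted p = 0.964, limma). PSMB9 had -0.09 ± 0.18, with 1 of 2 WCE arrays undetected. For PSMB8 none of 4 probes was detected on any array. ERAP1, which trims peptides in the endoplasmic reticulum, had 0.10 ± 0.17.

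Members of the class II pathway were split in detection. HLA-DRA, the nearly constant alpha chain of HLA-DR, had 8.24 and 8.26 with vehicle and 8.41 and 8.10 after WCE, a difference of 0.01 with a 95% interval from -0.38 to 0.39, and its second probe had -0.01 ± 0.21 (SE). HLA-DMA, which edits class II peptides, had 6.10 and 5.85 with vehicle and 6.16 and 6.40 after WCE, non-overlapping groups and 0.31 ± 0.18 (adjusted p = 0.385, limma). CIITA, the class II master regulator, was undetected with its 1 probe, as were all 3 probes of CD74, the chaperone of class II molecules. Outside the 34 genes, HLA-DRB1 and HLA-DPA1 were undetected. HLA-DMB, the partner of HLA-DMA, was detected with 0.09 ± 0.16, and HLA-DQB1, a beta chain of HLA-DQ, with 8.50 and 8.22 against 8.52 and 8.93, non-overlapping groups and 0.37 ± 0.19 (adjusted p = 0.341, limma).

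**Figure D4:**
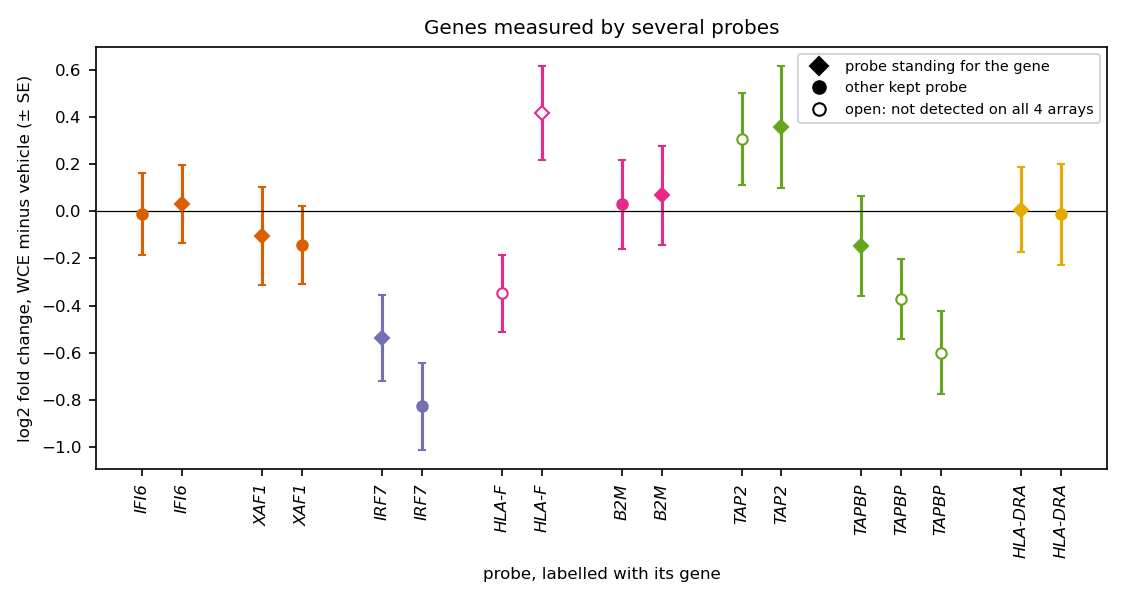
Log2 fold change, WCE minus vehicle, with its standard error, for each kept probe of the 8 genes with several (diamond, the probe standing for the gene; open, not detected on all 4 arrays). Probes of IRF7, TAPBP and XAF1 lie below 0 throughout, while those of HLA-F lie on both sides, at -0.35 and 0.42. Those of IFI6 (0.03 and -0.01) and HLA-DRA (0.01 and -0.01) also lie on both sides, close to 0. The open probes of TAPBP and HLA-F were detected in 1 group only and kept through it, which favours the sign they show.

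Across the 13 antigen presentation genes tested, 10 were higher and 3 lower on average, and across the 21 interferon-stimulated and regulatory genes 7 were higher and 14 lower. Their medians were 0.10 and -0.11, and the split of all tested genes was 6340 higher and 5796 lower. HLA-F is counted as higher by its brighter probe, though its probes went in opposite directions. That probe, HLA-B and, in the interferon set, IFI44 were kept through their WCE arrays, which favours the positive sign with which they are counted. PSMB9, counted as lower, was kept through its vehicle arrays, which favours a negative one. Of the 34 genes, 15 turned sign in at least 1 other setting, and they come from both sets. Other antigen presentation genes had 13 tested of 19 with a probe, of which 9 were higher and 4 lower on average, 0 passed in limma's test and 2 had an unadjusted p below 0.05. Those were CANX and IFI30, a chaperone and a lysosomal reductase, which had 0.57 and 0.49 (adjusted p = 0.161 and 0.215). The largest difference in that list was a negative one, that of ERAP2 (-0.70, limma adjusted p = 0.274). Its signals were 13.04 and 12.80 with vehicle and 12.80 and 11.65 after WCE. These counts describe the lists, and none of them was tested.

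At the level of single probes, 43 of the 78 were kept and 0 passed over all 21996 kept probes, of which 0.846% passed. Without adjustment 6 of the 43 had a limma p below 0.05, 2 higher and 4 lower, against 17.9% of all kept probes. They were the probes of ISG20, TAP1 and IFITM1, both of IRF7 and 1 of TAPBP.

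**Figure D5:**
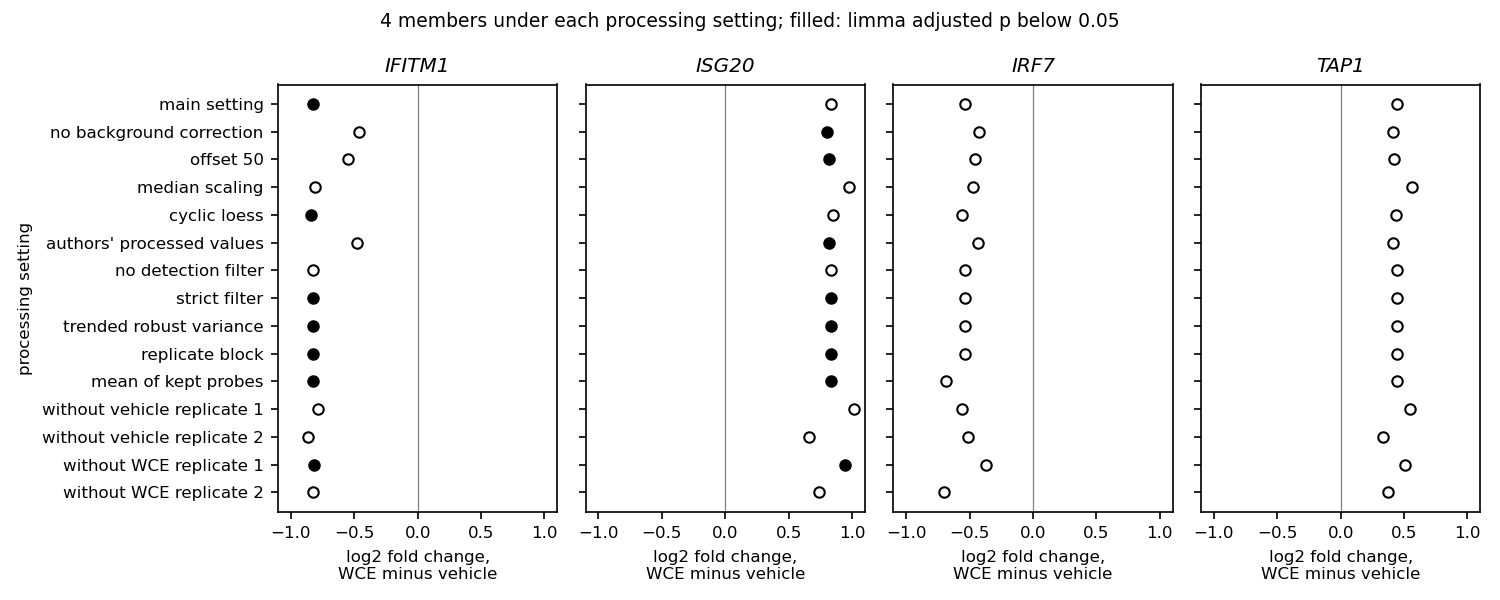
Log2 fold change of IFITM1, ISG20, IRF7 and TAP1 under the reported setting and each of 14 others (filled, limma adjusted p below 0.05). The signs hold in every setting, IFITM1 is filled in the reported setting and 6 others, ISG20 in 8 others, and IRF7 and TAP1 in 0.

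Promoter sequences were available in a RefSeq table of build GRCh38.p14, as windows of 300 bases reaching from 250 before to 50 after each start site. Of the 48 genes 36 matched, with 47 windows because some genes have several starts. Without a match were IFIT2, OAS2, OASL, IFITM2, IRF2, IRF3, IRF7, USP18, HLA-E, NLRC5, HLA-DRA and CIITA. Each window was searched on both strands for the core letters of the interferon-stimulated response element, GAAA followed by NN (any bases) and GAAA, which read TTTC, NN and TTTC on the other strand. Overlapping matches were all counted, and no other motif was searched. At least 1 match was found in 24 of the 36 genes and in 28 of the 47 windows, or 59.6%, against 3.57% of all 35116 windows. Because the genes were chosen as interferon genes, this describes the list and is not a result of the treatment. Matches were found for 19 of the 28 matched genes that were tested and for 5 of the 8 that were not.

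The 3 genes with the smallest p among those with a window are shown whole, 5′ to 3′ on the strand of the gene, with matches in capitals. IFITM1 (chr11:313790-314089, plus strand) has matches that begin 40 and 6 bases before the start. ISG20 (chr15:88638766-88639065, plus strand) has 1, beginning 69 bases before it. TAP1 (chr6:32853655-32853954, minus strand, the second of its windows) has 2 overlapping ones on the other strand, beginning 134 and 128 bases before it. Its window overlaps that of PSMB9, which is read the opposite way. So IFITM1, which was lower after WCE, and ISG20 and TAP1, which were higher on average, carry the same core letters.
IFITM1: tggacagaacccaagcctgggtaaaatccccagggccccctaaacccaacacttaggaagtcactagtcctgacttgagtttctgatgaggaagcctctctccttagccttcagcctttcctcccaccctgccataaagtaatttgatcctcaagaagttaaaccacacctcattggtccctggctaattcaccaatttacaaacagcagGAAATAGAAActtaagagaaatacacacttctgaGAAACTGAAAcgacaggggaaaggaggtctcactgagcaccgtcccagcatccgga
ISG20: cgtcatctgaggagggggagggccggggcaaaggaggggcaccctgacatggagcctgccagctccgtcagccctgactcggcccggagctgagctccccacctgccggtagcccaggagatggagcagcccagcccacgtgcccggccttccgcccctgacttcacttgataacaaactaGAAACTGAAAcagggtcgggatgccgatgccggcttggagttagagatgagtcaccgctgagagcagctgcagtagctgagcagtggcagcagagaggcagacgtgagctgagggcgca
TAP1: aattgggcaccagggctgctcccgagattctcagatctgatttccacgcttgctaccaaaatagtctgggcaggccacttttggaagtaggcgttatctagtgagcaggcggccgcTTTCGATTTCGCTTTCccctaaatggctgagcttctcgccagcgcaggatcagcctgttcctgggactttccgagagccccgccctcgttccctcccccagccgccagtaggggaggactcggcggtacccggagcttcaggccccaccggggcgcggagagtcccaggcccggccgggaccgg

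Shorter views of 30 bases show the first match in genes with other readouts. B2M (chr15:44711363-44711392, plus strand) and ISG15 (chr1:1013374-1013403, plus strand) were detected and did not pass, IFITM3 (chr11:320893-320922, minus strand) is the paralog of IFITM1, and IFIT1 (chr10:89392497-89392526, plus strand) and the first window of PSMB8 (chr6:32844032-32844061, minus strand) belong to genes detected on no array. A match is a run of letters, and binding of any factor was not measured.
B2M: gagactctaaGAAAAGGAAACTGAAAacgg
ISG15: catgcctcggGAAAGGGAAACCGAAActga
IFITM3: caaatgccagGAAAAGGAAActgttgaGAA
IFIT1: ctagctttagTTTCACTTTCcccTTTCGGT
PSMB8: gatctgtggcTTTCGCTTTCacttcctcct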

How the data were processed

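RNA of 4 samples was amplified to biotin-labelled cRNA and hybridised to Illumina bead arrays, per the labels' protocols. The deposited raw intensities are linear, with neither background subtraction nor scaling between arrays visible in their values, and a detection p-value stands beside each signal, per the file headers. The processed log2 values that the authors deposited were used as an alternative. The sources used here do not give how they were normalized. They differed by at most 0.136 from log2 raw signals after quantile normalization.

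Of 47320 probes 30112 had 1 gene symbol, 8 several and 17200 none. In limma 3.58.1 (R 4.3.3) signals were corrected by normexp from the detection p-values (offset 16), set to log2 and quantile-normalized. Probes with a detection p-value below 0.05 on both arrays of a group were kept, 21996 in all, and the brightest stood for its gene. The 2 groups were compared with lmFit and eBayes, with 2 residual and 7.12 prior degrees of freedom and Benjamini-Hochberg adjustment over all genes, or all probes. The number of arrays limits the precision.

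The genes and lists were chosen with earlier results of these data known. Values on every array are given for genes past the threshold, those with an unadjusted p below 0.05 and non-overlapping groups, those with the smallest p or the brightest probe in each role group, and those whose probes differ in sign. Others were added as paralogs, partners or for detection. Alternatives were cyclic loess, median scaling, a larger normexp offset (50), no background correction, the processed values, no filter, a strict filter (below 0.01 on all 4 arrays), a trended robust variance, a replicate block, the mean of kept probes, and leaving out each array.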

Additional observations from a re-analysis of the deposited data

How the results depend on the processing

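Among the 34 genes, the count past the threshold in limma's test stayed at 1 with no background correction, an offset of 50, cyclic loess and the authors' processed values, but it was IFITM1 only with cyclic loess and ISG20 in the others. It was 0 with median scaling and with no detection filter, and 2 (IFITM1 and ISG20) with the strict filter, the trended robust variance, the replicate block and the mean of kept probes. Leaving out each array gave 0 to 2, with 0 without vehicle replicate 1, vehicle replicate 2 or WCE replicate 2 and 2 without WCE replicate 1. When an array was left out, the lone one was assumed to vary like the other group. Over probes the count of 0 became 1 (ISG20) with no background correction, an offset of 50, the authors' processed values and the trended robust variance, and 3 (ISG20, IFITM1 and a probe of IRF7) with the strict filter and the replicate block, and it was 0 without any array. Of the 51 other pathway genes tested, 0 passed, but 3 (ERAP2, HERC5 and TRIM14, all lower) did with the replicate block, and 0 to 2 with an array left out (ERAP2 and TRIM14 without WCE replicate 1). Over all genes the count of 229 became 388 with no background correction, 368 with an offset of 50, 130 with median scaling, 402 with the authors' processed values, 53 with no detection filter and 457 with the trended robust variance. It was 745 with the replicate block (334 higher and 411 lower), and 75 to 860 with an array left out (860 without WCE replicate 1, 330 higher and 530 lower). The shared replicate numbers gave only 2 pairs, whose deviations from the group means correlated at -0.159, so they are not taken as pairing the arrays. With the numbers crossed, a setting chosen after seeing the data, 0 of the 34 genes and 167 of all genes passed. Over these 15 settings the sign of the difference turned in at least 1 for 15 of the 34 genes, for 13 of them only with an array left out. In 14 the difference was within 0.3 of 0, and HLA-F (0.42) was the exception. HLA-DRA was -0.011 with cyclic loess and -0.0031 with the mean of kept probes. With an array left out, HLA-DRA ranged from -0.15 to 0.16, B2M from -0.14 to 0.27, PSMB10 from -0.17 to 0.22, IFI6 from -0.0019 to 0.063, and HLA-F from -0.33 to 0.63, where the lowest value comes from its other probe, the brighter one without WCE replicate 2. Over the settings BST2 ranged from -0.56 to 0.0039, TAPBP from -0.42 to 0.13, XAF1 from -0.34 to 0.14 and IFI44 from -0.22 to 0.47. ERAP1, HLA-E, IFI44L, IFIH1, IFITM3 and PSMB9 turned too, between -0.27 and 0.26. Over the 14 settings other than the crossed one, IFITM1 ranged from -0.86 to -0.46 (adjusted p from 0.00867 to 0.246) and ISG20 from 0.66 to 1.02 (0.00711 to 0.284). The causes of these changes were not tested. With 2 arrays in each group the standard errors of the 34 genes lay between 0.156 and 0.250 on the log2 scale, and signals near background, among them those of IFITM1, HLA-B and HLA-F, depend on the background correction.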
